A study of Mus musculus with 54 samples.

Results

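Glutathione S-transferases are described here by 10 genes, chosen by symbol and with earlier results of these data known. These genes are Gstm1, Gstm2, Gstm3, Gstm4 and Gstm6 of the mu class, Gsta2, Gsta3 and Gsta4 of the alpha class, Gstp1 of the pi class and Gstt1 of the theta class. They are 10 of the 18079 genes in the deposited table, and all 10 were among the 11759 genes tested. Their RNA was measured in the livers of 54 female C57BL/6J mice, 8 to 12 weeks old, kept on normal chow ad libitum under 12 h of light and 12 h of dark. Wild-type mice (WT) were compared with mice carrying a BMAL1 knockout (KO) and with Liver-RE BMAL1-stop-FL mice (Liver-RE), in which BMAL1 is missing but was reconstituted in the liver. The sources used here do not name the construct or the promoter behind the reconstitution. Each genotype gave 18 livers, 3 mice at each of 6 harvest times, ZT0, ZT4, ZT8, ZT12, ZT16 and ZT20, where ZT0 is lights on. The comparisons ask what the loss of BMAL1 and its return to the liver do to the level and the daily rhythm of each transcript.

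Glutathione S-transferases join the tripeptide glutathione to electrophilic drugs, plant toxins and lipid peroxidation products, which makes these compounds water-soluble and ready for export. The cytosolic enzymes form dimers and are grouped by sequence into classes named with Greek letters. In liver they are abundant in hepatocytes, and their genes are known targets of the oxidative stress factor NRF2 and of the drug-sensing receptors CAR and PXR, several of which are in turn tied to the circadian clock. BMAL1, the product of Arntl, pairs with CLOCK to drive the clock's positive limb.

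The deposited table does not name its unit; from its smallest steps the values were taken as FPKM, reads per gene scaled by gene length and library depth, and TPM over a larger set of genes cannot be told apart from this. If they are FPKM, the depth read from these steps was 31.1 ± 4.05 M reads (mega reads) per library (SD, n = 54). Arntl RNA was present in KO livers at 6.26 to 8.74 FPKM (median 7.88), against 0.350 to 12.1 in WT and 0.894 to 10.7 in Liver-RE, so the FPKM of this gene does not mark the deletion. Nr1d1, a direct target of BMAL1, reached 17.7 FPKM in WT and 13.8 in Liver-RE but no more than 0.740 in any KO liver. In the WT ZT8 group, replicate 2 had 10.6 FPKM of Arntl against 0.414 and 0.563 in its group mates, and in the Liver-RE ZT0 group, replicate 3 had 1.91 against 7.75 and 10.6. Without these 2 libraries, all 30 level tests of the members kept their direction and side of the threshold, and the rhythms called are given below with and without them. Albumin, the defining hepatocyte product, took 10.2% ± 1.20 of all FPKM in WT and 9.57% ± 1.63 in Liver-RE, but 4.82% ± 0.920 in KO (SD, n = 18 each).

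The 5 mu class genes lie side by side on chromosome 3 (GRCm38.p6) with Gstm5 and Gstm7, in the order Gstm5, Gstm7, Gstm6, Gstm3, Gstm2, Gstm1, Gstm4. Gstm6 runs from 107938847 to 107953641, Gstm3 from 107963696 to 107969174 and Gstm2 from 107981702 to 107986420. Gstm1 follows from 108012250 to 108017973 and Gstm4 from 108030571 to 108045179. The alpha class is spread over chromosome 9, where Gsta4 (78191966 to 78209349) and Gsta2 (78331018 to 78347192) lie, and chromosome 1, where Gsta3 lies (21240565 to 21265575). Gstp1 is on chromosome 19 (4035411 to 4037912) and Gstt1 on chromosome 10 (75783813 to 75798584). Between pairs of the 5 mu genes, 79.1 to 89.5% of aligned coding bases were identical (median 83.3%, 10 pairs), against 52.8 to 57.5% between members of different classes (32 pairs). The closest pair was Gstm1 and Gstm3.

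RefSeq promoter windows, from 250 bases before to 50 after a start site, were matched for 9 of the 10 members and gave 13 windows. Those of Gstm2, Gstm3 and Gstm6 are printed because these genes differed most in KO, that of Gstm4 because it was the member with a rhythm in both WT and Liver-RE, and that of Gsta3 because it holds a motif match in the most abundant alpha transcript. All are from GRCm38.p6, written 5′ to 3′ on the gene's strand: Gstm2 at chr3:107986371-107986670, Gstm3 at chr3:107969125-107969424, the most downstream of 3 Gstm6 windows at chr3:107943349-107943648 and a Gstm4 window at chr3:108044807-108045106, all on the minus strand, and Gsta3 at chr1:21240335-21240634 on the plus strand. Capitals mark motif matches. Of the Gstm6 windows the printed one is the only one with a match, and it lies inside the gene. The most upstream Gstm6 window, at chr3:107953417-107953716, spans the annotated 5′ end of the gene and held no match.
Gstm2: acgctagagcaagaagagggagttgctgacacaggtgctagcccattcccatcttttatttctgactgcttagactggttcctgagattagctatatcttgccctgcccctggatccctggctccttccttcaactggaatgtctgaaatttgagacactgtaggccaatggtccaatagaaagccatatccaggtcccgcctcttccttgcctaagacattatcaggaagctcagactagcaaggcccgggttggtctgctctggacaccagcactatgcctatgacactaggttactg
Gstm3: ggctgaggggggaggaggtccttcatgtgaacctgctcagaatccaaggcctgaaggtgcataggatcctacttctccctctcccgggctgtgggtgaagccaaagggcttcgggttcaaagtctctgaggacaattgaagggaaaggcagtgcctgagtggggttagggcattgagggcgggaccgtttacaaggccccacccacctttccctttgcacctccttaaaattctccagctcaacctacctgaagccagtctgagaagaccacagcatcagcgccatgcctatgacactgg
Gstm6: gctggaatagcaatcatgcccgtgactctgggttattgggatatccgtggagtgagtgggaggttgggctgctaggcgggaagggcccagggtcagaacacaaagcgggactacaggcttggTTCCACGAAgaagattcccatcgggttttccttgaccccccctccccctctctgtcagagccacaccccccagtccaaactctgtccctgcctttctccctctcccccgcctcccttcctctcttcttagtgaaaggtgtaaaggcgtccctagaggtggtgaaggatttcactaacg
Gstm4: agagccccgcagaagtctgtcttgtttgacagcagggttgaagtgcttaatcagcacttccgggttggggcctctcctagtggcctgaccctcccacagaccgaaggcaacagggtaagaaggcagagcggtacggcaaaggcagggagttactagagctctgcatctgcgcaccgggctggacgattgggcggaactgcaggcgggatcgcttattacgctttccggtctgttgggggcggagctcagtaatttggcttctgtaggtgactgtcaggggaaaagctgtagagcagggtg
Gsta3: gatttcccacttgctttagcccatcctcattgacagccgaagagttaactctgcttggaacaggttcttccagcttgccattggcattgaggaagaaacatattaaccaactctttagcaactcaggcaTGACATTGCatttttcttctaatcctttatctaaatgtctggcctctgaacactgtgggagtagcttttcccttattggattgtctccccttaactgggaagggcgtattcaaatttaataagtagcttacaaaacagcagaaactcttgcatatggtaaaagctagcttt

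Motifs were searched on both strands of the 13 windows, and no match overlapped another. The E-box CACGTG, bound by CLOCK and BMAL1, was in 0 of the 9 members' windows and in 7.15% of 32851 RefSeq promoters of this length. The D-box TTANGTAA (2.32% of promoters) and the REV-ERB and ROR element TAGGTCA (2.61%) also had 0 matches. The antioxidant response element core TGACNNNGC, found in 12.4% of promoters, occurred in Gsta3 as TGACATTGC from 121 to 113 bases before the start. A STAT site TTCNNNGAA, found in 8.30% of promoters, occurred in Gstm6 as TTCCACGAA. It lay in the most downstream Gstm6 window, inside the gene, from 128 to 120 bases before that window's start site. These are letter matches in short windows and say nothing of binding.

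In WT liver Gsta3 was the highest of the 10 transcripts, at 714 ± 122 FPKM (SD, n = 18), followed by Gstm1 at 443 ± 105, Gstt1 at 181 ± 27.9 and Gstp1 at 107 ± 23.8. Each of these steps was larger than the larger SD of the neighbouring pair. The others lay lower, Gsta4 at 51.9 ± 16.9, Gstm6 at 37.2 ± 8.75, Gstm2 at 26.6 ± 7.81, Gstm3 at 16.1 ± 7.01, Gstm4 at 14.8 ± 6.21 and Gsta2 at 9.74 ± 6.30 FPKM. Neighbours that did not differ beyond their spread were Gsta4 with Gstm6, Gstm3 with Gstm4 and Gstm4 with Gsta2. In KO the order changed: Gstm1 came first at 894 ± 234 FPKM and Gsta3 second at 625 ± 119. Behind them, Gstt1, Gstm6, Gstm2, Gstp1 and Gstm3 formed a run from 138 down to 90.1 FPKM in which no neighbours differed beyond their spread. Liver-RE had the WT order for the first 8 places and differed in the last, where Gsta2 (17.8 ± 6.67) stood above Gstm4 (15.9 ± 6.48), a step within the spread.

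The balance of classes moved with it. Mu class RNA made up 33.4% ± 3.99 of the summed FPKM of the 10 members in WT livers, 58.0% ± 5.21 in KO livers and 33.5% ± 3.98 in Liver-RE livers (SD, n = 18 each). In single livers this share lay between 25.0 and 40.2% in WT, 48.5 and 67.7% in KO, and 28.5 and 42.9% in Liver-RE, so KO did not overlap either group. The alpha class held 48.4% ± 4.75 in WT and 50.1% ± 4.09 in Liver-RE, but 30.8% ± 4.25 in KO. In FPKM the alpha class differed less between genotypes than in share, at 776 ± 135 (WT), 656 ± 122 (KO) and 850 ± 143 (Liver-RE), while the mu class was at 537 ± 116, 1252 ± 309 and 572 ± 141 in the same order. The summed FPKM of the 10 members was highest in KO at 2145 ± 405, against 1601 ± 237 in WT and 1700 ± 285 in Liver-RE.

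**Figure D1:**
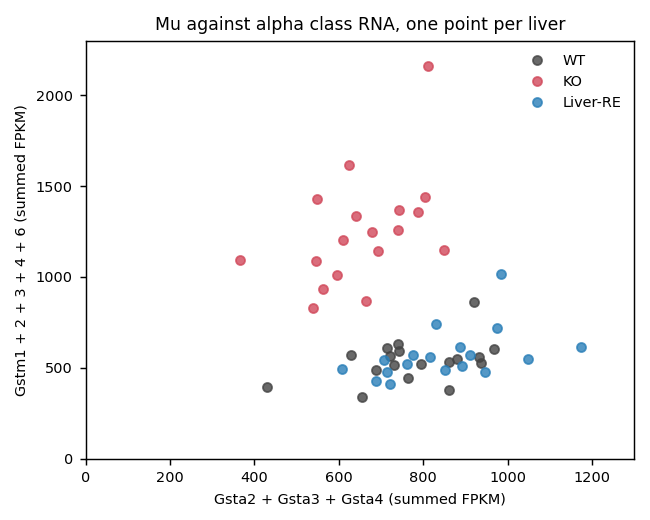
Each point is 1 liver, with the summed FPKM of Gsta2, Gsta3 and Gsta4 on the horizontal axis and of the 5 mu class genes on the vertical axis, coloured by genotype. KO livers lie between 828 and 2161 FPKM of mu class RNA; WT livers lie between 338 and 862 and Liver-RE livers between 409 and 1017.

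Without BMAL1 all 5 mu class transcripts were higher. In the test of mean level between genotypes (limma on log2(FPKM + 1), Benjamini-Hochberg over all 11759 genes, threshold 0.05), 5 of the 10 members rose and 3 fell in KO against WT, where 16.5% of all genes tested rose and 13.5% fell. The median log2 difference was 0.25 over the members and 0.02 over all genes tested. Bulk tissue cannot tell a change in RNA per cell from a change in the number of cells of a type.

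Gstm2, a conjugating enzyme of the mu class, ranged from 11.0 to 43.7 FPKM in WT livers (median 26.5) and from 89.7 to 161 in KO livers (median 122). Every KO liver was above every WT liver, a separation that 0.315% of genes tested showed in this direction, and the log2 difference was 2.19 ± 0.12 (SE; limma adjusted p = 2.87e-20). Gstm6 was separated in the same way, at 20.2 to 50.6 FPKM in WT (median 38.3) and 77.8 to 189 in KO (median 118). Its log2 difference was 1.72 ± 0.11 (limma adjusted p = 1.40e-18).

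Gstm3 had the largest log2 difference of the members, 2.36 ± 0.20 (limma adjusted p = 5.99e-14), with 5.58 to 37.4 FPKM in WT (median 16.5) and 29.3 to 251 in KO (median 81.0). Of the 18 KO livers, 17 were above all WT livers, and the WT maximum came from ZT12 replicate 2. At ZT20 the KO livers held 251, 79.3 and 76.1 FPKM against 5.58, 16.6 and 10.8 in WT. KO ZT20 replicate 1 is therefore far above its group mates for Gstm3, and it was the highest KO liver for 8 of the 10 members. With any single library left out, the log2 difference of Gstm3 stayed between 2.28 and 2.43.

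Gstm1, the main mu class transcript of mouse liver, ranged from 288 to 758 FPKM in WT (median 442) and from 559 to 1529 in KO (median 877). The ranges overlapped, with 13 of 18 KO livers above all WT livers, and the log2 difference was 1.01 ± 0.10 (limma adjusted p = 4.77e-11). Gstm4 differed least, at 5.50 to 24.5 FPKM in WT (median 14.9) and 13.4 to 30.9 in KO (median 21.6), a log2 difference of 0.63 ± 0.11 (limma adjusted p = 1.87e-05). Only 5 KO livers exceeded the WT range for Gstm4, and its WT and KO means were close at ZT0, ZT4 and ZT8. Ranked by log2 difference from the highest of 11759 genes, Gstm3 was at place 11, Gstm2 at 15, Gstm6 at 26, Gstm1 at 83 and Gstm4 at 213.

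**Figure D2:**
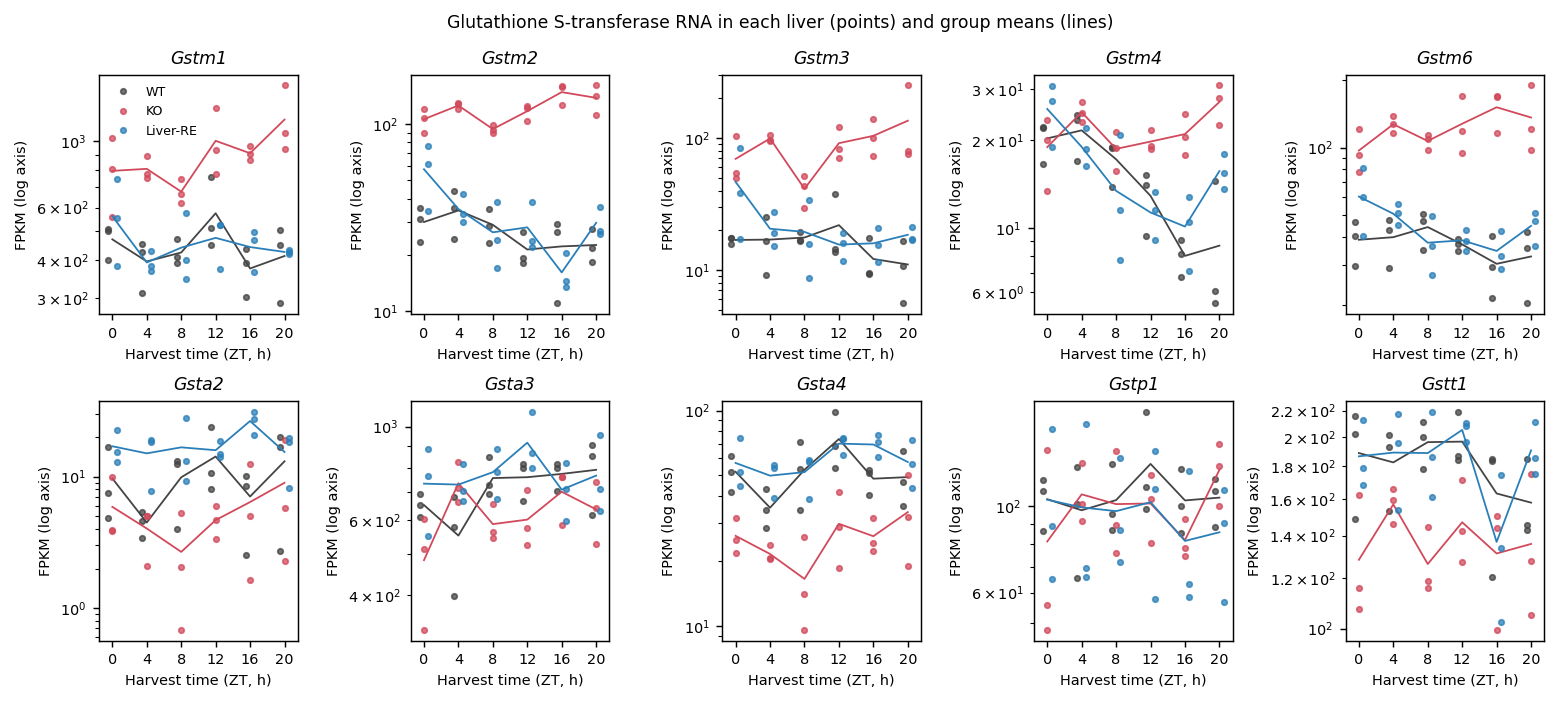
FPKM of each of the 10 genes (log axis) against harvest time in h of ZT, with a point per liver (shifted sideways by genotype) and lines through the means of 3 mice, coloured by genotype. For Gstm2 and Gstm6 all 18 KO livers lie above all 18 WT livers; Gsta4 lies lower in KO at all 6 times.

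Alpha class transcripts went the other way or did not pass. Gsta4, an enzyme specialised for the lipid peroxidation product 4-hydroxynonenal, ranged from 28.5 to 98.8 FPKM in WT (median 51.8) and from 9.60 to 50.4 in KO (median 23.9). The ranges overlapped, 12 of 18 KO livers lay below all WT livers, and expression fell by 1.01 ± 0.13 on the log2 scale (limma adjusted p = 1.29e-08). Gsta2, an inducible alpha enzyme, ranged from 2.55 to 23.9 FPKM in WT (median 8.28) and from 0.685 to 18.9 in KO (median 4.84). It fell by 0.75 ± 0.25 on the log2 scale (limma adjusted p = 0.0170), with broad overlap: 5 KO livers were below the WT range.

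Gsta3, the most abundant alpha transcript, overlapped but for 1 KO liver below the WT range, at 397 to 903 FPKM in WT (median 699) and 331 to 823 in KO (median 624). Its log2 difference of -0.20 ± 0.09 did not pass (limma adjusted p = 0.0895; 95% interval -0.38 to -0.02). It did pass after quantile normalization (-0.24, limma adjusted p = 0.00241) and after rescaling each library without its 20 highest genes (-0.23, limma adjusted p = 0.0145), and also without WT ZT4 replicate 1 (limma adjusted p = 0.0324) or KO ZT4 replicate 1 (limma adjusted p = 0.0454). The call for Gsta3 thus depends on the scaling and on single libraries.

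Gstt1, the theta enzyme known for conjugating small halogenated compounds, ranged from 121 to 219 FPKM in WT (median 185) and from 99.6 to 175 in KO (median 143). With overlapping ranges it fell by 0.40 ± 0.08 on the log2 scale (limma adjusted p = 0.000255) and was lower in KO at all 6 harvest times. Gstp1, the pi enzyme, ranged from 65.6 to 175 FPKM in WT (median 105) and from 48.2 to 145 in KO (median 96.6). Its log2 difference was -0.13 ± 0.15 with a 95% interval of -0.43 to 0.16 (limma adjusted p = 0.517), and the ranges overlapped, with 2 KO livers below all WT livers.

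In Liver-RE the mu class means stood closer to the WT than to the KO level. Against KO, 5 members fell and 4 rose, where 26.7% of all genes tested fell and 7.42% rose, and the median log2 difference was -0.30 over the members and -0.07 over all genes. This comparison shares its KO livers with the comparison of KO and WT, so the opposite signs are not separate evidence. Gstm2 ranged from 13.4 to 76.6 FPKM in Liver-RE (median 28.4), wholly below KO, a separation seen in 0.408% of genes tested, and fell by 2.00 ± 0.12 on the log2 scale (limma adjusted p = 1.21e-18). Gstm6 ranged from 27.0 to 80.9 FPKM (median 42.7), with 17 of 18 livers below the KO range, and fell by 1.47 ± 0.11 (limma adjusted p = 4.54e-16). Gstm3 lay between 8.71 and 84.1 FPKM (median 17.1), with 15 livers below the KO range, and fell by 1.98 ± 0.20 (limma adjusted p = 1.46e-11). The Liver-RE maxima of all 5 mu genes came from a single liver, ZT0 replicate 1.

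Gstm1 ranged from 348 to 745 FPKM in Liver-RE (median 428) and fell against KO by 0.95 ± 0.10 on the log2 scale (limma adjusted p = 2.14e-10), with 16 of 18 livers below the KO range. Gstm4, at 7.10 to 30.7 FPKM (median 14.5), fell by 0.51 ± 0.11 (limma adjusted p = 0.000432), and 8 livers were below the KO range. Among the alpha genes, Gsta4 lay between 38.9 and 76.8 FPKM (median 58.2) and rose by 1.24 ± 0.13 (limma adjusted p = 6.42e-11), with 14 livers above the KO range. Gsta2 lay between 7.75 and 31.2 FPKM (median 18.3) and rose by 1.71 ± 0.25 (limma adjusted p = 3.01e-07). Gsta3 lay between 550 and 1084 FPKM (median 772) and rose by 0.31 ± 0.09 (limma adjusted p = 0.00550), the smallest of the called differences. Gstt1 lay between 102 and 219 FPKM (median 186) and rose by 0.41 ± 0.08 (limma adjusted p = 0.000192). Gstp1, at 56.9 to 163 FPKM (median 88.0), differed from KO by -0.09 (95% interval -0.39 to 0.20; limma adjusted p = 0.643), which did not pass.

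Set against WT, 1 member rose in Liver-RE and 0 fell, where 1.18% of all genes tested rose and 5.88% fell. That member was Gsta2, with a log2 difference of 0.95 ± 0.25 (limma adjusted p = 0.0126): Liver-RE means were above WT at all 6 times, by 1.12-fold at ZT12 and 3.76-fold at ZT16, and 3 livers exceeded the WT range. No member was separated from WT liver by liver (0.0085% of genes tested lay wholly above). Gsta2 thus had its lowest mean in KO and its highest in Liver-RE. For the other members the 95% intervals of the log2 difference were 0.03 to 0.46 for Gstm6, -0.02 to 0.77 for Gstm3, -0.06 to 0.43 for Gstm2, -0.16 to 0.26 for Gstm1 and -0.11 to 0.34 for Gstm4. They were -0.06 to 0.30 for Gsta3, -0.04 to 0.48 for Gsta4, -0.52 to 0.06 for Gstp1 and -0.16 to 0.18 for Gstt1. A return of the mu genes to WT is therefore known only within these intervals. That of Gstm6 lay above 0, though its difference did not pass (limma adjusted p = 0.143), and 5 Liver-RE livers exceeded its WT range. The median log2 difference of the 5 mu genes was 0.19. The median log2 difference was 0.15 over the members and -0.06 over all genes tested.

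**Figure D3:**
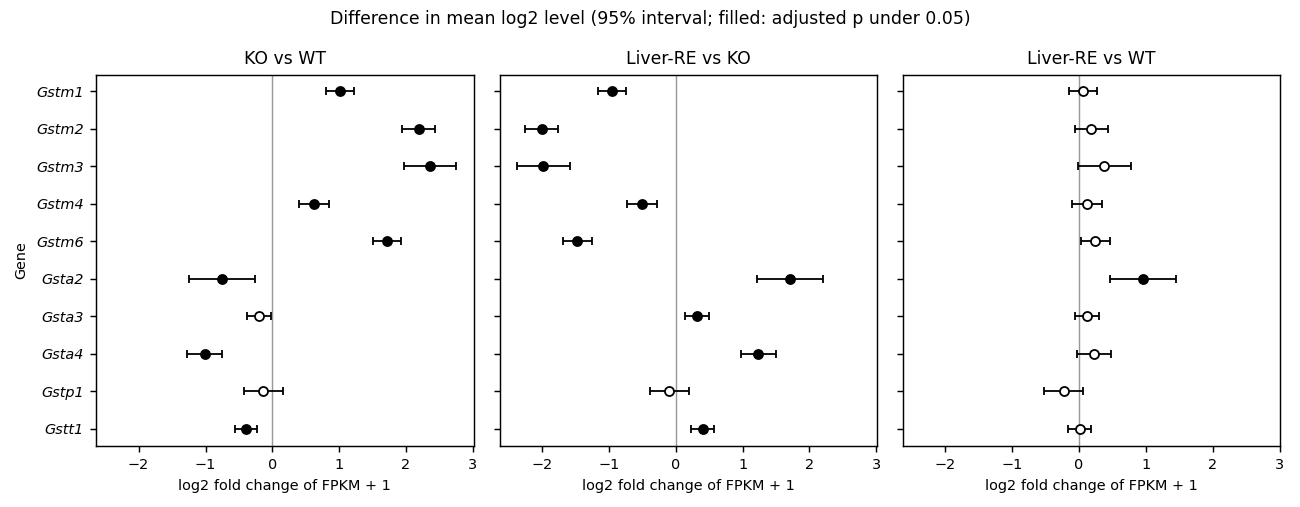
Log2 differences in mean level with 95% intervals for the 10 genes in KO against WT, Liver-RE against KO and Liver-RE against WT; filled points passed an adjusted p of 0.05. The 5 mu class genes are filled to the right of 0 in the first panel and to the left in the second, and in the third Gsta2 alone is filled.

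Along the mu class cluster, the KO difference was highest in the middle, at Gstm3 and Gstm2. Their 95% intervals overlapped (1.96 to 2.75 and 1.94 to 2.44), so their order is not resolved. How many stretches Gstm5 and Gstm7 share with other genes was not computed. Going from Gstm5 to Gstm4, the log2 differences of KO against WT were 0.24 for Gstm5, 0.92 for Gstm7, 1.72 for Gstm6, 2.36 for Gstm3, 2.19 for Gstm2, 1.01 for Gstm1 and 0.63 for Gstm4, and all 7 passed. Gstm7 went from 19.2 FPKM in WT to 36.7 in KO (limma adjusted p = 8.31e-13), while Gstm5 went from 9.04 to 11.0 (limma adjusted p = 0.0325). Transferases other than the members were mixed. Of 12 tested, Gstm5 and Gstm7 of the cluster among them, 4 rose in KO and 5 fell, where 16.5% of all genes tested rose and 13.5% fell. Those of the 12 that fell all lie outside the cluster. Besides Gstm7 and Gstm5, Gstk1, the mitochondrial and peroxisomal kappa enzyme, rose by 0.68 ± 0.08 on the log2 scale. Gstz1, an enzyme of tyrosine breakdown, rose by 0.19 ± 0.07.

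Gstt2, a theta enzyme like Gstt1, fell by 1.01 ± 0.10 on the log2 scale in KO (limma adjusted p = 2.48e-11) and Gstt3 fell by 0.49 ± 0.18 (limma adjusted p = 0.0320). Membrane-bound Mgst3 fell by 0.73 ± 0.12, while Mgst1, whose WT mean of 1318 FPKM was above that of every member, had a difference of 0.19 ± 0.11 that did not pass (limma adjusted p = 0.173). Gsto1 fell by 0.18 ± 0.06 and Hpgds, prostaglandin D synthase, by 0.15 ± 0.05, at low means of 0.632 FPKM in WT and 0.467 in KO. Against KO, Liver-RE livers had 3 of the 12 higher (Gstt2, Gstt3 and Mgst3) and 4 lower (Gstm7, Gstk1, Gstm5 and Gstp3). Against WT they had 0 higher and 1 lower (Hpgds). Over all genes tested, 7.42% rose and 26.7% fell against KO, and 1.18% rose and 5.88% fell against WT.

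**Figure D4:**
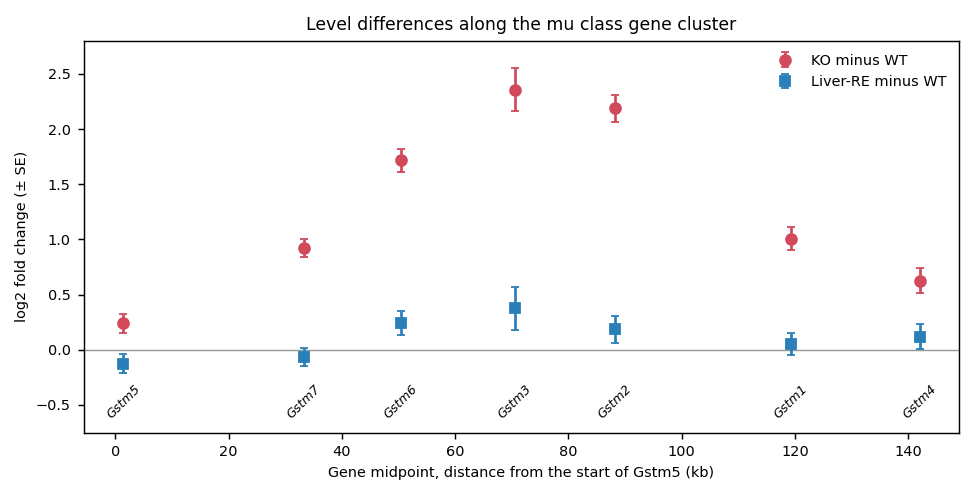
Log2 difference in mean level (± SE) against the distance in kb of each gene's midpoint from the start of Gstm5, for the 7 mu class genes of the cluster, with KO minus WT in red circles and Liver-RE minus WT in blue squares. KO differences run from 0.24 at Gstm5 through 2.36 at Gstm3 to 0.63 at Gstm4; for Liver-RE minus WT, 0 of the 7 passed.

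Gstm4 was the member with a daily rhythm in WT. A rhythm was an F test of a 24 h cosine and sine within a genotype (limma, Benjamini-Hochberg over all genes), and 1 of the 10 members passed in WT, where 23.5% of all genes tested did. WT livers held 16.6, 22.3 and 22.1 FPKM of Gstm4 at ZT0, then 17.0, 24.5 and 23.5 at ZT4 and 18.8, 13.9 and 19.0 at ZT8. They held 15.2, 14.0 and 9.40 FPKM at ZT12, 8.14, 9.10 and 6.79 at ZT16 and 5.50, 14.5 and 6.06 at ZT20. The group mean was highest at ZT4 and lowest at ZT16. The fitted peak was at ZT4.59 with a peak-to-trough fold of 2.73 (limma adjusted p = 2.31e-05), and 2.87 without the libraries whose Arntl stands apart (limma adjusted p = 1.15e-05).

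In KO the Gstm4 values stayed between 13.4 and 30.9 FPKM with no rhythm called (peak-to-trough 1.19-fold, limma adjusted p = 0.877). The difference in rhythm between KO and WT passed for Gstm4 (limma adjusted p = 0.00465, and 0.00252 without those libraries) and for 1 of the 10 members in all, where 7.78% of all genes tested passed. KO means were 0.934 to 1.15 times the WT means at ZT0, ZT4 and ZT8, but 2.63 times at ZT16 and 3.12 times at ZT20. The excess of Gstm4 in KO was largest in these dark-phase livers. Across KO liver, 0 of the 10 members and 0% of all genes tested passed the rhythm test, while at an unadjusted p of 0.05 Gstm1 and Gsta4 passed, where 9.40% of all genes did. Without adjustment 2 members passed in WT (37.6% of all genes), 4 in Liver-RE (21.1%) and 4 in the difference of KO and WT (24.6%). An F test between the 6 times (limma) gave 0 of the 10 members in KO with adjustment (0.051% of all genes) and 4 without (13.1% of all genes). The same test gave 1 member in WT with adjustment (20.7% of all genes) and 1 without (34.9%), and 2 in Liver-RE with adjustment (3.71%) and 2 without (24.5%).

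Liver-RE had 2 rhythmic members of 10, where 3.82% of all genes tested passed. Gstm4 held 30.7, 27.3 and 19.0 FPKM at ZT0, 18.6, 16.4 and 22.0 at ZT4 and 7.78, 11.5 and 20.9 at ZT8. It held 11.5, 13.3 and 9.05 FPKM at ZT12, 12.7, 10.5 and 7.10 at ZT16 and a mean of 15.7 ± 2.20 (SD, n = 3) at ZT20. The highest group mean was at ZT0 and the lowest at ZT16. The fitted peak was at ZT1.08 with a fold of 2.26 (limma adjusted p = 0.00310), and 2.35 without the libraries whose Arntl stands apart (limma adjusted p = 0.00311). The difference in rhythm from WT did not pass (limma adjusted p = 0.0571). It passed under 5 of 9 other settings (limma adjusted p = 0.0269 to 0.0474), among them the fit without the libraries whose Arntl stands apart (limma adjusted p = 0.0331), and in 10 of the 54 fits that left out 1 library (limma adjusted p = 0.0233 to 0.0499). WT ZT8 replicate 2 was one of these 10 (limma adjusted p = 0.0303) and Liver-RE ZT0 replicate 3 was not. The call thus lies close to the threshold and turns on the setting.

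Gstm2 in Liver-RE held 76.6, 61.0 and 34.5 FPKM at ZT0, 42.4, 33.0 and 30.0 at ZT4 and 17.1, 23.9 and 38.2 at ZT8. It held 38.4, 22.0 and 23.7 FPKM at ZT12, 14.5, 20.4 and 13.4 at ZT16 and 36.1, 26.8 and 26.0 at ZT20. Its group mean was highest at ZT0 and lowest at ZT16. The fitted peak was at ZT1.65 with a fold of 2.29 (limma adjusted p = 0.00657), and 2.41 without the libraries whose Arntl stands apart (limma adjusted p = 0.00619). The call for Gstm2 was lost when the model was fitted on Liver-RE livers alone (limma adjusted p = 0.0920). In WT Gstm2 had a peak at ZT3.62 and a fold of 1.66 that did not pass (limma adjusted p = 0.0638). It passed under 4 of 10 other settings, including the fit without those libraries (fold 1.70, limma adjusted p = 0.0497), and in 6 of the 54 fits that left out 1 library. In Liver-RE against WT 0 members differed in rhythm, where 3.51% of all genes tested did, and 1 had an unadjusted p under 0.05, as did 17.8% of all genes. In Liver-RE against KO 0 members differed, where 0.238% of genes did, and 3 had an unadjusted p under 0.05, as did 12.4% of all genes.

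**Figure D5:**
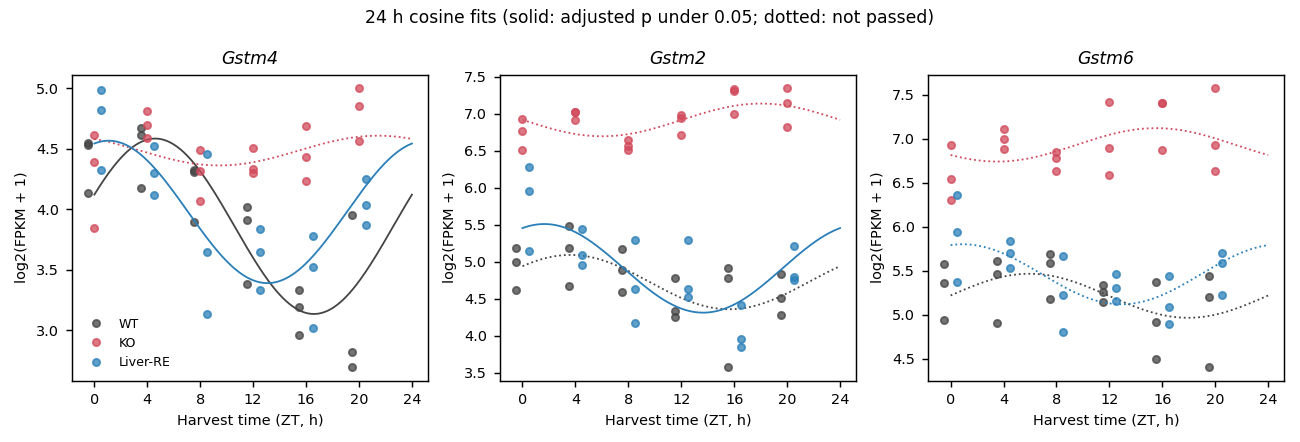
Log2(FPKM + 1) of Gstm4, Gstm2 and Gstm6 against harvest time in h of ZT, a point per liver (shifted sideways by genotype), with the fitted 24 h cosine of each genotype (solid where the rhythm passed an adjusted p of 0.05, dotted where it did not). Gstm4 has solid curves in WT and Liver-RE and Gstm2 in Liver-RE alone; the KO curves are dotted in all 3 panels.

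The remaining members had no rhythm called in any genotype. Gstm6 in Liver-RE had a fold of 1.61 with a peak at ZT0.91 (limma adjusted p = 0.107), and Gstm3 a fold of 2.01 with a peak at ZT0.49 (limma adjusted p = 0.226). The fitted folds of Gsta3 lay between 1.13 and 1.36 over the 3 genotypes, those of Gstp1 between 1.06 and 1.18 and those of Gstt1 between 1.08 and 1.23. In WT and in Liver-RE the smallest fold of the 10 members was that of Gstm1, at 1.14 and 1.08, and in KO that of Gstp1.

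The genes whose pattern was most like each member were found by Pearson correlation of log2(FPKM + 1) over the 18 group means, which share the large difference between genotypes, and are given as a description. Gstm2 was closest to Gstm6 (r = 0.98), then Gstm3 (0.96) and Gstm7 (0.96). Gstm3 was closest to Gstm6 (0.97) and Gstm1 to Gstm3 (0.96). Outside the family, Cyp2c55, a cytochrome P450, was among the 3 closest genes of Gstm6 (0.97), Gstm3 (0.96) and Gstm1 (0.94). Gstm4 stood apart from its cluster: its closest genes were Cyp51 (0.95) and Nsdhl (0.94), which encode enzymes of cholesterol synthesis, and Gnpat (0.94), of ether lipid synthesis. The alpha genes Gsta2 and Gsta4 were close to each other (0.90), Gsta2 being closest to Rcan2 (0.91) and Gsta4 to Chdh (0.93), choline dehydrogenase. Gsta3 was closest to Akr1d1 (0.88), the bile acid and steroid reductase, and Gstt1 to Orm1 (0.92), an acute phase protein. Gstp1 had no gene above 0.76 (Cystm1).

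Other genes of glutathione metabolism went in both directions, as did all genes tested. Of all genes tested, 16.5% rose and 13.5% fell in KO against WT, and 7.42% rose and 26.7% fell in Liver-RE against KO. For Liver-RE against WT these shares were 1.18% and 5.88%. The list counts from here on stand beside these shares and were not tested against them. Of 13 tested genes of glutathione synthesis and recycling, 3 rose and 3 fell in KO against WT. Cbs, which feeds homocysteine into cysteine synthesis, went from 108 to 191 FPKM (log2 difference 0.90 ± 0.12), Ggct rose by 0.54 ± 0.09 and Lap3 by 0.36 ± 0.08, while Oplah, the 5-oxoprolinase, fell by 0.29 ± 0.07. The subunits of glutamate-cysteine ligase, the rate-limiting enzyme of glutathione synthesis, did not pass: Gclc had 69.7 FPKM in WT and 78.3 in KO, and Gclm 63.4 and 58.4. In Liver-RE 2 of the 13 rose and 3 fell against KO and 0 passed against WT.

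Among 13 glutathione-using enzymes other than transferases, 3 rose and 2 fell in KO, where 16.5% of all genes tested rose and 13.5% fell. Glo1, the glyoxalase that clears methylglyoxal, rose by 0.54 ± 0.10 and Esd by 0.28 ± 0.07, and Glrx, glutaredoxin, fell by 0.51 ± 0.12. Gpx7 fell by 0.47 ± 0.08, from 1.37 to 0.710 FPKM, low values whose change the added 1 understates. With quantile normalization or rescaling without the 20 highest genes the split was 3 higher and 4 lower. Against KO, Liver-RE had 4 higher and 4 lower (5 and 2 under either rescaling), and against WT 0. Of 8 tested exporters and transporters of conjugates, 2 rose and 1 fell in KO: Slco1a1, an organic anion uptake carrier, rose by 1.19 ± 0.37 and Abcc3, a basolateral exporter, by 0.38 ± 0.09, and Abcc4 fell by 0.28 ± 0.07. Abcc2, the canalicular exporter of conjugates, had 86.7 FPKM in WT and 75.9 in KO and did not pass. In Liver-RE 2 of the 8 rose and 2 fell against KO, and 0 passed against WT.

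Of 18 regulators of transferase genes, 2 rose and 8 fell in KO, where 16.5% of all genes tested rose and 13.5% fell. Cux2, a repressor known for its high level in female liver, went from 4.30 to 0.599 FPKM (log2 difference -1.73 ± 0.17), and Bach1, which competes with NRF2 at its sites, fell by 0.56 ± 0.06. Maff, a small MAF partner of NRF2, fell by 0.58 ± 0.10, from 0.908 to 0.232 FPKM, a range where the added 1 understates changes. Cebpa fell by 0.44 ± 0.07, from 79.5 to 58.0 FPKM. Nfe2l2, which encodes NRF2, had 14.9 FPKM in WT and 16.8 in KO and did not pass (limma adjusted p = 0.0621), and Nr1i3, which encodes CAR, had 64.0 and 55.2 (limma adjusted p = 0.0951). Against KO, 7 of the 18 rose in Liver-RE and 2 fell (9 and 1 with quantile normalization). Against WT 0 rose and Cux2 fell.

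NRF2 targets other than transferases, 17 tested, had 2 higher and 4 lower in KO, where 16.5% of all genes tested rose and 13.5% fell. Aox1, aldehyde oxidase, rose by 0.54 ± 0.11 and Ephx1, the microsomal epoxide hydrolase, by 0.51 ± 0.10, whereas G6pdx, of the pentose phosphate pathway, fell by 0.91 ± 0.18 and Hmox1, heme oxygenase, by 0.44 ± 0.12. Nqo1, a standard readout of NRF2, had 5.69 FPKM in WT and 5.81 in KO and did not pass. In Liver-RE 5 of the 17 rose and 3 fell against KO, and 2 rose and 2 fell against WT.

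CAR and PXR targets other than transferases, 16 tested, had 7 higher and 5 lower in KO, where 16.5% of all genes tested rose and 13.5% fell. Cyp2c55 went from 2.05 to 35.1 FPKM (log2 difference 3.56 ± 0.18) and Cyp2c29 from 433 to 858 (0.95 ± 0.11), but Cyp2b13 went from 32.4 to 1.89 (-3.52 ± 0.27) and Ugt1a1, the bilirubin glucuronosyltransferase, from 327 to 184 (-0.81 ± 0.08). In Liver-RE 6 of the 16 rose and 8 fell against KO, and 4 rose and 0 fell against WT. Of 16 core clock genes, 7 rose and 7 fell in KO, 7 rose and 7 fell in Liver-RE against KO, and 0 passed against WT.

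Markers of other liver cells differed between the groups as well. Over all genes tested, 16.5% rose and 13.5% fell in KO against WT, and 5.88% fell in Liver-RE against WT. Of 8 cholangiocyte markers 2 were tested (Sox9 and Spp1) and both rose in KO against WT. The list's summed level was 15.0 to 77.4 FPKM in KO livers, 12.6 to 41.3 in WT and 9.23 to 22.5 in Liver-RE. This sum is mostly Spp1, with means of 17.7 FPKM in WT and 39.5 in KO. The defining markers Krt19, Krt7 and Epcam had genotype means of at most 0.506 FPKM and were not tested. Their means were not higher in KO: 0.360 FPKM in WT and 0.311 in KO for Krt19, 0.156 and 0.130 for Krt7, and 0.506 and 0.491 for Epcam. Also untested, Cftr had 0.0430 and 0.0358, Muc1 0.120 and 0.119, and Tspan8, higher in KO, 0.394 and 0.447. No marker of the list was at 0 in any liver. Of 11 Kupffer cell and macrophage markers 10 fell in KO, with summed levels of 182 to 403 FPKM in KO against 302 to 431 in WT and 183 to 445 in Liver-RE. In Liver-RE 5 of these 11 were lower than in WT, and 0 differed from KO. Of 10 hepatocyte markers 0 rose and 3 fell in KO, and the summed level, mostly albumin, was 21472 to 39762 FPKM in KO, 38660 to 59558 in WT and 31224 to 65079 in Liver-RE. Higher and lower calls in KO were 1 and 1 of 10 endothelial, 0 and 2 of 9 stellate cell, 0 and 1 of 4 lymphocyte, 1 and 1 of 2 adipocyte, and 1 and 0 of 1 erythroid markers tested. The part of these cells in the transferase results was not tested.

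Reads cannot be placed with equal certainty on all members. Of all 100-base stretches of their annotated transcripts, 28.4% of those of Gsta2 also occur in another gene, most often Gsta1, as do 25.1% of those of Gstp1, each also in Gstp2, and 13.8% of those of Gstm3, most often in Gm8834. The share was 5.86% for Gstm1, 1.10% for Gstm6 and 0.357% for Gstm2, and 0% for Gstm4, Gsta3, Gsta4 and Gstt1. The sources used here do not say how reads that fit several genes were counted, so the values of Gsta2, Gstp1 and Gstm3 are less certain than those of the rest. Gsta1 and Gstp2 were both listed at genotype means of at most 0.525 FPKM.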

How the data were processed

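RNA from 54 mouse livers (3 genotypes, 6 harvest times, 3 mice each) was sequenced as stranded libraries of total RNA after ribosomal RNA removal, from 1 end with 100 bases, per the labels' protocols. CASAVA 1.8.2 and mm10 are named, without a role, in the submitters' processing notes, and neither aligner, quantification tool nor annotation is given in the sources used here. Values for each gene and library came in a single table from the authors; its unit is not named, and it was taken as FPKM, scaled by the authors by gene length and depth, from which TPM over more genes cannot be told apart. At low values, 6.83% ± 1.24 (SD, n = 54 libraries) fell on the most frequent value once multiplied by transcript length, against 2.31% ± 0.151 as deposited. Depth read from these steps lay between 24.5 and 42.7 M reads (mega reads). Since whole reads were not recovered, count models and counting intervals were left out. The FPKM of a library summed to 274353 to 419402. No libraries were identical; the highest correlation between 2 libraries was 0.992.

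Values were analysed as log2(FPKM + 1), which understates changes of low genes, keeping 11759 genes whose mean FPKM reached 0.5 and leaving out 6320. All 54 libraries were fitted together with limma 3.58.1 under R 4.3.3, with trended empirical Bayes and, per genotype, a mean plus a 24 h cosine and sine. Level differences contrast genotype means, rhythms are F tests of cosine and sine, and p-values were adjusted over all genes by Benjamini-Hochberg. They rest on a single spread per gene, pooled over the 3 genotypes around the fitted 24 h curves and moderated across genes. This spread holds differences between mice and any departure of the time means from a 24 h curve. The functions were tested on simulated data. Members and gene lists were chosen with earlier results of these data known. A gene of the marker lists is not reported here. Named are all members, measured genes of the list of other transferases, up to 4 genes per other pathway list with the smallest p in a level comparison, and the 3 genes most like each member. Outside this rule, and chosen with their values seen, are Gclc, Gclm, Nfe2l2, Nr1i3, Nqo1, Arntl, Nr1d1 and the albumin gene. So are the cholangiocyte markers Sox9, Spp1, Krt19, Krt7, Epcam, Cftr, Muc1 and Tspan8, of which Sox9 and Spp1 alone were tested. Coding identity used the longest open reading frame of each gene's GENCODE transcripts. Promoters and coordinates come from RefSeq (GRCm38.p6). Tables and figures used matplotlib 3.10.9, numpy 2.4.6 and pandas 2.3.3 in Python 3.11.15. Other settings tried were another pseudocount, no filter, 2 other scalings, other model terms, a replicate block, fewer genotypes in the fit and each library left out.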

Additional observations from a re-analysis of the deposited data

Results flagged for a closer look

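The effect of the knockout on Gstm4 differed between harvest times, and so between the WT and KO rhythms. The F test of the difference of the 24 h cosine and sine gave a limma adjusted p of 0.00465 (Benjamini-Hochberg over 11759 genes). WT means fell from 21.7 ± 4.03 FPKM at ZT4 to 8.01 ± 1.16 at ZT16 (SD, n = 3), whereas KO means were 25.0 ± 1.98 and 21.0 ± 3.50. The adjusted p stayed between 0.00252 and 0.00791 under the 9 other settings and between 0.00214 and 0.0111 with any library left out.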

How the results depend on the processing

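Of 270 values of the members' level tests under 9 other settings, 268 kept their direction and side of the threshold; the other 2 are the calls of Gsta3 given above. Members rhythmic in WT numbered 2 in place of 1, Gstm2 being added, with quantile normalization, with rescaling without the 20 highest genes, with group means as terms and without the libraries whose Arntl stands apart, a setting chosen after seeing the data. Members differing in rhythm between Liver-RE and WT numbered 1 in place of 0, Gstm4, under the same 4 settings and under the replicate block. Members differing between KO and WT numbered 2 in place of 1, Gstm2 being added, with group means and with only the genotypes concerned, and members rhythmic in Liver-RE numbered 1 in place of 2 with Liver-RE alone. The cause of these shifts was not tested. Of the list counts, those of glutathione-using enzymes that were lower, 2 in KO against WT and 4 in Liver-RE against KO, became 4 and 2 under both rescalings, and regulators lower in Liver-RE against KO became 1 with quantile normalization.

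Whether replicate numbers pair the mice was not settled. Deviations from group means correlated by 0.040 on average between same-numbered libraries (-0.402 to 0.510). The average of -0.020 between others follows from centring each group of 3 on its mean, so it is no separate comparison. With the replicate block, Gstm4 in Liver-RE against WT had a limma adjusted p of 0.0474, and all other member counts were as without it.

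With each of 54 libraries left out in turn, members rhythmic in WT ranged from 1 to 2, members differing in rhythm from 1 to 2 in KO against WT, from 0 to 1 in Liver-RE against WT and from 0 to 1 in Liver-RE against KO. Gstm2 became rhythmic in WT without WT ZT4 replicate 1, ZT8 replicate 2, ZT16 replicate 2 or 3, Liver-RE ZT0 replicate 1 or ZT12 replicate 1, with limma adjusted p down to 0.0300. Gstm4 came to differ between Liver-RE and WT without WT ZT0 replicate 2 or 3, ZT4 replicate 1, ZT8 replicate 2 or ZT20 replicate 2, KO ZT0 replicate 3, or Liver-RE ZT8 replicate 3, ZT12 replicate 2, ZT16 replicate 3 or ZT20 replicate 1 (limma adjusted p down to 0.0233). Gstm2 came to differ between KO and WT without WT ZT16 replicate 3 (limma adjusted p = 0.0456) and between Liver-RE and KO without Liver-RE ZT12 replicate 1 (limma adjusted p = 0.0383). The uncalled level difference of Gstt1 between Liver-RE and WT, 0.01, changed sign in 11 of these fits (-0.0208 to 0.0548), and that of Hmox1 between Liver-RE and KO in 4 of them (-0.0092 to 0.0553). Other transferases lower in KO against WT numbered 3 in place of 5 without KO ZT8 replicate 3 or KO ZT20 replicate 2. Glutathione-using enzymes higher in Liver-RE against KO numbered 2 in place of 4 without KO ZT0 replicate 1 or Liver-RE ZT12 replicate 1. With 3 mice per time, rhythms of small swing are poorly resolved.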
